A study of Mus musculus with 4 samples.

Results

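Solute carriers are membrane proteins that move nutrients, transmitters, ions and metabolites across the cell surface and the membranes of organelles. The genes described here are those whose symbol begins with Slc and a number in the spot annotation of the array, except Slc1a2, which the rule leaves out. They numbered 183 of the 10225 genes that had a spot of their own, and were represented by 291 of 18511 such spots. They belonged to 46 numbered subfamilies. The symbol rule also admitted 4 genes that are no carriers, the scaffold genes Slc9a3r1 and Slc9a3r2 and the neighbouring transcripts Slc6a19os and Slc7a6os, named here after their symbols were read. A further 6 solute carrier genes reached only by spots shared with other genes, among them Slc12a2 and Slc18a2, were not analysed here.

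RNA came from the spinal cords of SJL/J mice, all adult females. The control group had no treatment named in the labels, and the AT-EAE group had adoptive-transfer experimental autoimmune encephalomyelitis, a model of multiple sclerosis in which transferred T cells attack myelin. Each extract pooled the cords of 2 mice, so no value belongs to 1 animal. Each of the 4 cDNA arrays carried 2 extracts of the same group, 1 per colour channel: extracts 1 and 2 on array 1 of a group, and extracts 3 and 4 on array 2. A deposited value is therefore a log ratio of 2 extracts of 1 group, taken to be to base 2, and AT-EAE cord was not set against control cord on any array. The channel in the numerator is not given in the sources used here, so a sign has meaning only against other genes of that array.

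Cells of the central nervous system depend on these proteins in many ways. Astrocytes take up glutamate through carriers of the Slc1 family, glucose enters through Slc2 and lactate passes between glia and axons through Slc16. Neurons load vesicles through Slc17, Slc18 and Slc32 and recover transmitters through Slc6. Carriers of the Slc25 family connect the mitochondrial matrix with the cytosol, those of Slc35 bring nucleotide sugars into the Golgi, and those of Slc30 and Slc39 move zinc out of and into the cytosol.

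The tissue was checked against markers of its cells. All 4 astrocyte markers with a spot and all 3 oligodendrocyte markers had a value on every array, and 4, 4, 4 and 3 of the 4 neuron markers had one, in the order control array 1, control array 2, AT-EAE array 1 and AT-EAE array 2, which holds for every run of 4 values below. Of 7 microglia and macrophage markers, 6, 7, 7 and 5 had a value, and of 5 red blood cell markers 5, 4, 3 and 3. Relative to the array median, the 7 microglia and macrophage markers had a median ratio of -0.28 on AT-EAE array 1. The 3 measured red blood cell and 3 measured neutrophil markers had -0.80 and -0.49 on AT-EAE array 2. Shifts were not limited to these lists or to AT-EAE. Oligodendrocyte, meninges and fibroblast, and astrocyte markers had -0.22, -0.21 and -0.16 on AT-EAE array 1, and astrocyte markers 0.27 on AT-EAE array 2. Neuron and neutrophil markers had -0.24 and 0.29 on control array 2. The part of any marker list in the carriers' ratios was not tested. The 1 T cell marker with a spot had no value on any array, and no Schwann cell marker had a spot. A missing value is no proof of missing RNA, since the filter that removed it is not given, and fewer cells of a type and less RNA per cell cannot be told apart in whole cord.

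The first question was which carriers gave a value in which cord. Of the 183 solute carrier genes, 155, 146, 131 and 95 were measured, or 84.7%, 79.8%, 71.6% and 51.9%. Over all 10225 genes the shares were 86.2%, 80.1%, 72.4% and 54.9%. Carriers thus lost values from array to array much as the whole table did. The mean share of carriers in control cord was 82.2% ± 3.48 (SD, n = 2 arrays). In AT-EAE cord it was 61.7% ± 13.9 (SD, n = 2 arrays), a difference of -20.5 percentage points against -19.5 for all genes. Both control arrays lay above both AT-EAE arrays (2-sided exact permutation p = 0.333, the smallest p that 4 arrays allow). The AT-EAE arrays lay further from each other than the control arrays did. Without AT-EAE array 2 the difference was -10.7 points.

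**Figure D1:**
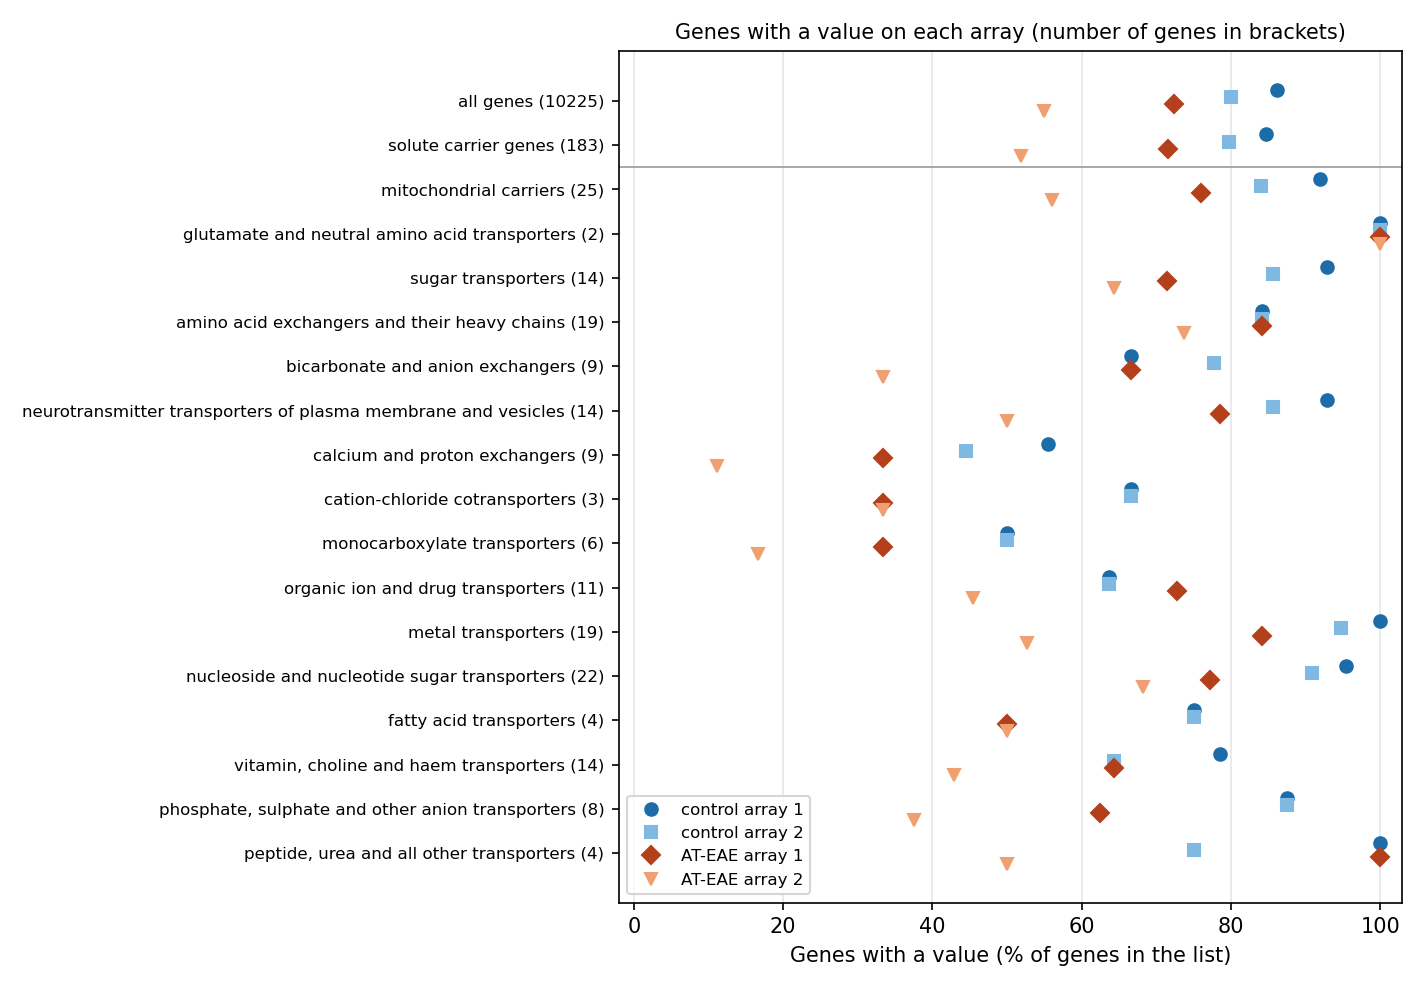
Share of genes with a value on each of the 4 arrays (x axis, percent of the genes in the list), for all genes, for the 183 solute carrier genes and for 16 functional groups of them, with the number of genes in brackets; each symbol is 1 array. Carriers lie close to all genes on every array, at 51.9% against 54.9% on AT-EAE array 2, while the calcium and proton exchanger group, which holds 2 scaffold genes, and monocarboxylate transporters lie lower and amino acid exchangers stay at 73.7% on AT-EAE array 2.

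Values were nested. The 95 carriers measured on AT-EAE array 2 were measured on all 4 arrays, 31 more were missing there alone, 18 had values on both control arrays only, 9 on control array 1 only and 24 on none. Together 177 of 183 carriers (96.7%) followed this order of arrays, against 95.4% of all genes. Of the 104 carriers with a single spot, 76.9%, 71.2%, 63.5% and 40.4% had a value on the 4 arrays, and of the 79 with at least 2 spots 94.9%, 91.1%, 82.3% and 67.1%. All genes had 75.9%, 67.0%, 57.5% and 38.8% with 1 spot, and 96.7%, 93.3%, 87.5% and 71.3% with at least 2. A gene counts as measured once any of its spots has a value, so more spots can only raise its share.

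Carriers of amino acids and of sugars for glycoproteins kept most of their values. Among 19 amino acid exchangers and heavy chains, 16, 16, 16 and 14 had a value, and none had values on both control arrays and neither AT-EAE array. The 19 include Slc7a6os, which is no carrier and had no value. The group also holds Slc3a2, the heavy chain that brings the large neutral amino acid exchangers to the cell surface, and the glutamine carriers of Slc38. All 7 Slc38 genes had a value on the first 3 arrays and 5 on AT-EAE array 2, and 7, 7, 7 and 6 of the 7 Slc39 zinc importers had one. Of the 22 nucleoside and nucleotide sugar transporters, 21, 20, 17 and 15 had a value. Both measured Slc1 genes, Slc1a3, the astrocyte glutamate transporter, and Slc1a5, a neutral amino acid exchanger, had values on all 4 arrays.

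Other groups kept fewer values on AT-EAE array 2. Of 9 genes grouped as calcium and proton exchangers, 5, 4, 3 and 1 had a value. The 9 include the scaffold genes Slc9a3r1 and Slc9a3r2, and the 1 gene measured on AT-EAE array 2 was Slc9a3r2, so no exchanger of the group had a value there. Of 6 monocarboxylate transporters, 3, 3, 2 and 1 had one. The 6 are grouped by subfamily number and include Slc16a10, an aromatic amino acid transporter with no value. The 1 monocarboxylate transporter with 4 values was Slc16a1, the carrier of lactate and pyruvate found in oligodendrocytes and endothelium. Slc8a1, which expels calcium in exchange for sodium, had values on 3 arrays. Of 19 metal transporters, 19, 18, 16 and 10 had a value, and of 25 mitochondrial carriers 23, 21, 19 and 14. Of 14 neurotransmitter transporters and related Slc6 genes, 13, 12, 11 and 7 had one. These groups are small, and each array gives 1 share, so their differences from all genes were not tested.

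Presence in both control arrays and neither AT-EAE array was the pattern of 18 carriers, or 9.84%, and 9.14% of all 10225 genes showed it, so the share is near the background. Those with most spots were Slc4a1, the anion exchanger of red blood cells, Slc12a4, a potassium-chloride cotransporter, Slc16a13, Slc25a3, the mitochondrial phosphate carrier, Slc25a36, Slc27a2, which takes part in fatty acid activation, and Slc35f2. Slc4a1 had 3 spots and each of the others 2. With 1 spot each, Slc13a3, Slc22a4, Slc29a2, Slc2a3 and Slc30a4 followed. Slc2a3 is the main glucose transporter of neurons, and its ratios were 0.34 and 0.12 on the control arrays. Slc4a1 is also 1 of the 5 red blood cell markers, and its value came from 1 of its 3 spots. The ratios of these 12 ran from -0.38 for Slc12a4 to 0.45 for Slc16a13. Without AT-EAE array 1 the count was 49, namely the 18 and the 31 missing on AT-EAE array 2 alone. Those patterns made up 9.84% and 16.9% of carriers, and 9.14% and 16.3% of all genes.

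The opposite pattern, values on both AT-EAE arrays and on neither control array, was found for 0 carriers and for 0.127% of all genes. Slc22a2 and Slc22a30, organic ion transporters of a family best known from kidney and liver, had a value on AT-EAE array 1 and on no other, each from 1 spot. That pattern was seen for 1.09% of carriers and 0.411% of all genes. Without AT-EAE array 2 these carriers would make a count of 2. No value was found for 24 carriers (13.1%), against 11.9% of all genes. Among them were Slc7a11, the cystine-glutamate exchanger, and Slc12a1, the sodium-potassium-chloride cotransporter of the kidney. Others were Slc5a1, the glucose transporter of the gut, and Slc27a5, which activates bile acids in liver. All were singled out after their values were seen.

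A list of 29 carriers of known importance in nervous tissue was drawn up by name. Of these, 15 had a spot of their own, 9 had values on all 4 arrays and 1, Slc7a11, had none. The 9 were Slc1a3, Slc2a1, Slc3a2, Slc6a9, Slc16a1, Slc25a5, Slc30a3, Slc32a1 and Slc38a3. Slc2a3 and Slc25a3 had values on both control arrays and neither AT-EAE array. Slc4a4, the sodium bicarbonate cotransporter of astrocytes, had values on control array 2 and AT-EAE array 1, at 0.34 and -0.16. Slc8a1 and Slc40a1, the iron exporter ferroportin, were missing on AT-EAE array 2 alone.

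The second question was how far 2 extracts of 1 group differed in these carriers. The lowest ratios of carriers were -0.72, -0.76, -3.21 and -0.98, and the highest were 0.47, 0.50, 0.45 and 1.02. A ratio of at least 1 in size, a 2-fold difference, was seen for 0 of 155, 0 of 146, 1 of 131 and 2 of 95 carriers. Over all genes 0.136%, 0.391%, 0.365% and 1.07% reached it. With so few carriers past this limit, the counts cannot be told from the background. At 1.5-fold the counts were 3, 3, 3 and 12 carriers, against 1.69%, 3.29%, 2.14% and 9.86% of all genes, where the carriers' shares were 1.94%, 2.05%, 2.29% and 12.6%.

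**Figure D2:**
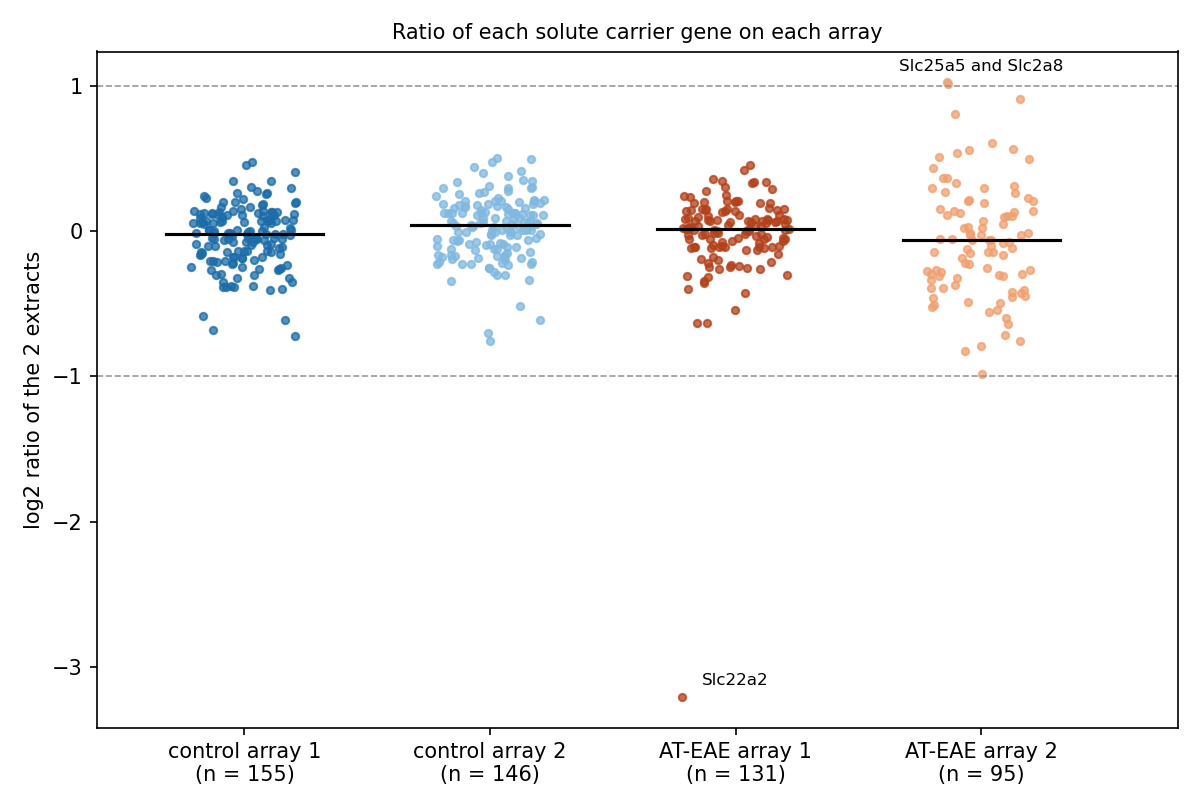
Log2 ratio of the 2 extracts (y axis) for each solute carrier gene with a value on each array (x axis, with the number of genes); points are genes, spread sideways at random, black lines are medians and dashed lines mark a 2-fold ratio. Slc22a2 at -3.21 on AT-EAE array 1, and Slc25a5 at 1.02 and Slc2a8 at 1.01 on AT-EAE array 2, lie past the dashed lines.

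The 3 carriers past 2-fold rested on different evidence. Slc22a2, an organic cation transporter, was measured by 1 spot on 1 array, at -3.21, and had no value to compare with. Slc25a5, the ADP/ATP carrier that exports ATP from mitochondria, had ratios of -0.06, 0.28, 0.35 and 1.02. Its 2 spots gave -0.10 and -0.01, 0.33 and 0.22, 0.43 and 0.27, and 0.90 and 1.15, so they stood on the same side of 0 each time. Slc2a8, an intracellular glucose transporter, had -0.03, -0.02, -0.11 and 1.01. Its AT-EAE array 2 value came from 1 of 3 spots. That spot and another were at -0.57 and 0.53 on control array 2, so their mean there hid a wide disagreement.

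Spots of 1 gene set the error of these ratios. The standard deviation between spots of a carrier was 0.24, 0.26, 0.22 and 0.31 on the 4 arrays, over 57, 48, 37 and 17 carriers with at least 2 measured spots. For all genes it was 0.24, 0.28, 0.24 and 0.36. The spread of carriers about their median, given as a median absolute deviation scaled to a standard deviation, was 0.20, 0.20, 0.18 and 0.38, and 0.18, 0.23, 0.17 and 0.33 for all genes. The 2 measures are unlike, since outlying genes move the deviation between spots more. As a plain standard deviation, the spread of carriers was 0.21, 0.22, 0.34 and 0.40, with Slc22a2 at -3.21 in the third. Either way, carriers on the control arrays differed from each other no more than spots of 1 carrier did. On AT-EAE array 2 they differed more, though the deviation between spots there rests on 17 carriers. All genes did not on that array, with a spread of 0.33 or, as a plain standard deviation, 0.36 against 0.36 between spots. On AT-EAE array 1 the answer for carriers depends on the measure. Among carriers with exactly 2 measured spots, both lay on the same side of 0 for 27 of 42, 21 of 36, 16 of 32 and 8 of 13, and for 52.9%, 56.3%, 54.3% and 55.7% of all such genes. On AT-EAE array 1 as many carriers had spots on opposite sides of 0 as on the same side.

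**Figure D3:**
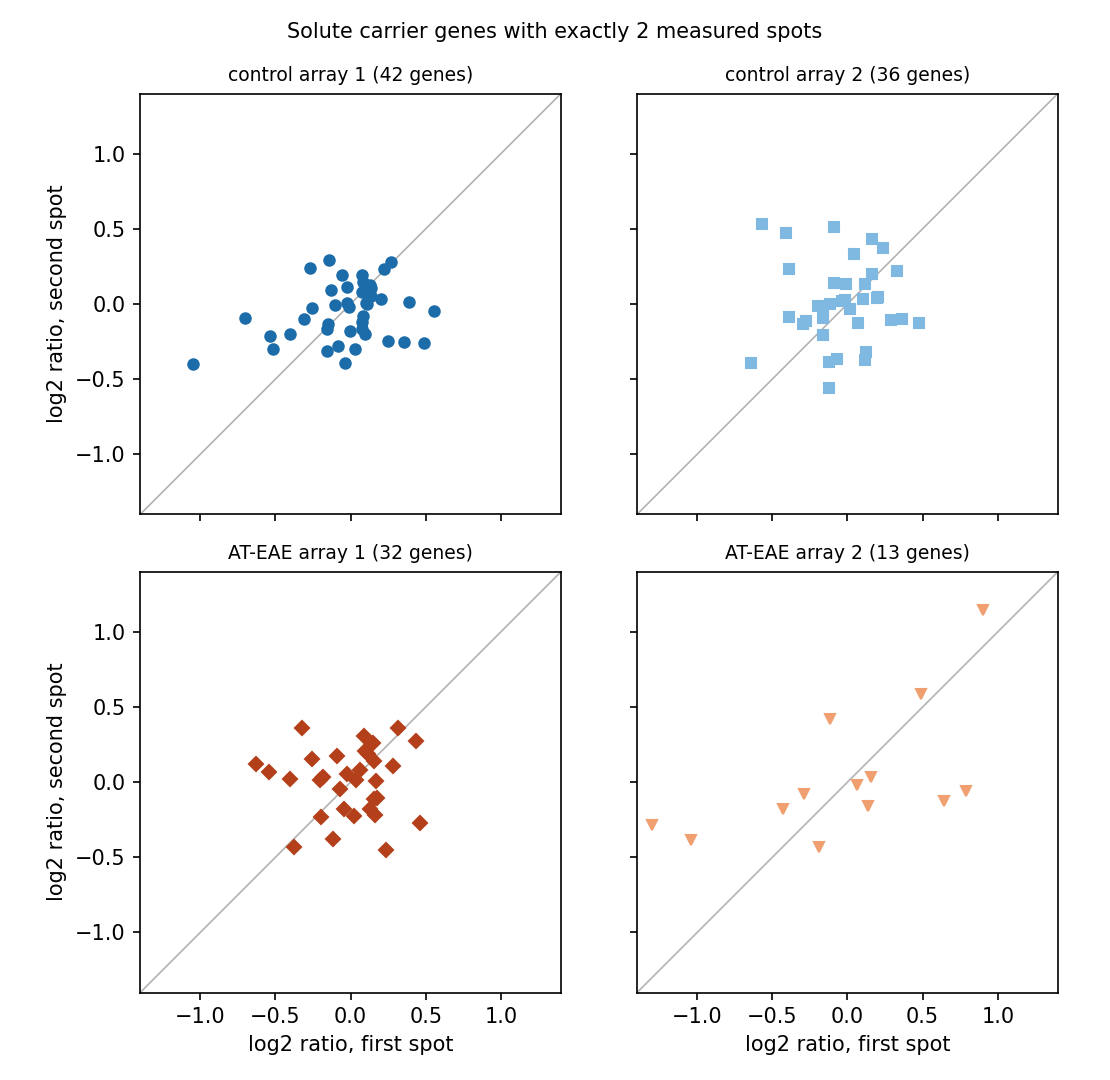
Log2 ratio of the first spot (x axis) against that of the second (y axis) for solute carrier genes with exactly 2 measured spots, 1 panel per array; the line marks equal ratios and spots are ordered by their number. The median absolute difference between spots was 0.20, 0.19, 0.22 and 0.25 in the order of the panels, and Slc25a5 is the point at 0.90 and 1.15 on AT-EAE array 2.

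The mean spread of carriers was 0.20 ± 0.00373 (SD, n = 2 arrays) for control cord. For AT-EAE cord it was 0.28 ± 0.14 (SD, n = 2 arrays). The 2 groups lay 0.08 apart, less than the AT-EAE arrays lay from each other (2-sided exact permutation p = 1, where 0.333 is the smallest possible). By the scaled median absolute deviation, AT-EAE array 2 was the widest of the 4 and AT-EAE array 1 the narrowest, so these group means differ through 1 array. Without AT-EAE array 2 the difference was -0.02.

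Carriers of transmitters and their precursors ranged from ratios near 0 to some of the highest of an array. Slc1a3 had ratios of 0.17, 0.15, -0.05 and 0.21, all smaller than the deviation between spots. Slc6a9, the glycine transporter that clears glycine near spinal synapses, had -0.22, 0.19, -0.02 and 0.07. Slc32a1, which fills inhibitory vesicles with GABA and glycine, had -0.02, 0.13, -0.07 and -0.25. Slc38a3, which passes glutamine out of astrocytes, had 0.11, 0.44, 0.35 and 0.51, all above 0, and was among the 4 highest carriers on control array 2 and AT-EAE array 1. Slc30a3, which loads zinc into synaptic vesicles, was the highest on control array 1 among carriers measured on all 4 and had 0.41, 0.26, -0.06 and -0.01. Slc6a6, the taurine transporter, had 0.11, 0.01, 0.09 and 0.91, the last from 1 of its 2 spots. Slc6a8, the creatine transporter, had 4 spots and ratios of 0.00, -0.03, 0.02 and 0.36, and on AT-EAE array 2 its 2 measured spots were at 0.79 and -0.06.

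Among carriers of sugar and fuel, Slc2a1, the glucose transporter of the blood-brain barrier and of astrocytes, had ratios of 0.27, -0.13, 0.07 and 0.54. Its 2 spots were at 0.27 and 0.28, -0.16 and -0.10, 0.06 and 0.08, and 0.49 and 0.59, closer to each other than the spots of most carriers. Slc16a1 had 0.14, 0.20, -0.31 and 0.33. Slc27a1, a fatty acid transporter, was the lowest carrier measured on all 4 arrays on control array 2, with 0.06, -0.70, -0.32 and -0.28. Slc27a4 of the same family had 0.07, 0.02, -0.25 and -0.79. Its 2 spots parted by 0.75 on AT-EAE array 1 and by 1.02 on AT-EAE array 2, where they were at -1.30 and -0.28. On both arrays its gap was the widest of any carrier with exactly 2 measured spots. Slc2a6, an intracellular hexose transporter, had -0.05, 0.30, -0.06 and -0.83.

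Amino acid carriers were mixed. Slc3a2 had 3 spots and gene ratios of -0.01, 0.11, -0.02 and -0.03, the nearest to 0 of the nervous-tissue carriers. Even so its spots spanned -0.44 to 0.40 on control array 2. Slc38a1, a glutamine transporter of neurons, had 0.12, 0.13, -0.40 and 0.30, and on AT-EAE array 1 its 2 measured spots were at -0.37 and -0.43. Slc3a1, the heavy chain of the kidney cystine transporter, had 0.34, -0.06, 0.00 and 0.56. Slc66a1, a lysosomal exporter of cationic amino acids, had -0.18, 0.04, -0.11 and -0.98 from 1 of 2 spots, the lowest on AT-EAE array 2. As a group, the amino acid exchangers and heavy chains lay at -0.02, 0.09, 0.05 and 0.24 relative to the median of all genes on the array, with 9 of 14 above on AT-EAE array 2. Their mean there was 0.10, so that value rests on how the group is summarised.

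Mitochondrial carriers lay at -0.05, 0.08, 0.09 and 0.05 relative to the array medians. Above the median lay 10 of 23, 14 of 21, 13 of 19 and 7 of 14 of them. Slc25a33, a pyrimidine nucleotide carrier, and Slc25a11, the oxoglutarate carrier, were the highest on control array 2 among carriers measured on all 4 arrays, at 0.50 and 0.48. Their ratios on AT-EAE array 2 were -0.27 and -0.30. Slc25a1, the citrate carrier that supplies acetyl units for lipid synthesis, was above 0 on every array, with 0.15, 0.31, 0.16 and 0.43; it was picked after its values were seen. Slc25a47 was below 0 on every array, with -0.61, -0.22, -0.13 and -0.39. The outer membrane and import genes, a list drawn up beside the carriers, lay at -0.06, 0.11, -0.03 and 0.19 with 2, 6, 3 and 5 of 9 genes above the array median. Vdac1, the main pore of the outer membrane, had ratios of -0.06, 0.51, 0.28 and 0.93, close to those of Slc25a5, a likeness noticed after the values were seen.

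Zinc transporters held the carrier whose mean ratio was largest in size among those measured on all 4 arrays. Slc30a1, the zinc exporter of the cell surface, had ratios of -0.68, -0.34, -0.54 and -0.27, from 1 of its 2 spots. It was the lowest carrier measured on all 4 arrays on control array 1 and on AT-EAE array 1, and the second lowest on control array 2. Slc30a2, a zinc transporter of vesicles, ran the other way at 0.01, 0.19, 0.45 and 0.80, the highest of these carriers on AT-EAE array 1 and the fourth highest on AT-EAE array 2. Slc39a10, a zinc importer, had 0.06, -0.03, 0.34 and 0.61, and Slc39a4 had -0.09, -0.05, -0.30 and -0.64, both picked after their values were seen. As a group, the metal transporters lay at -0.04, 0.00, 0.00 and -0.05 relative to the array medians.

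**Figure D4:**
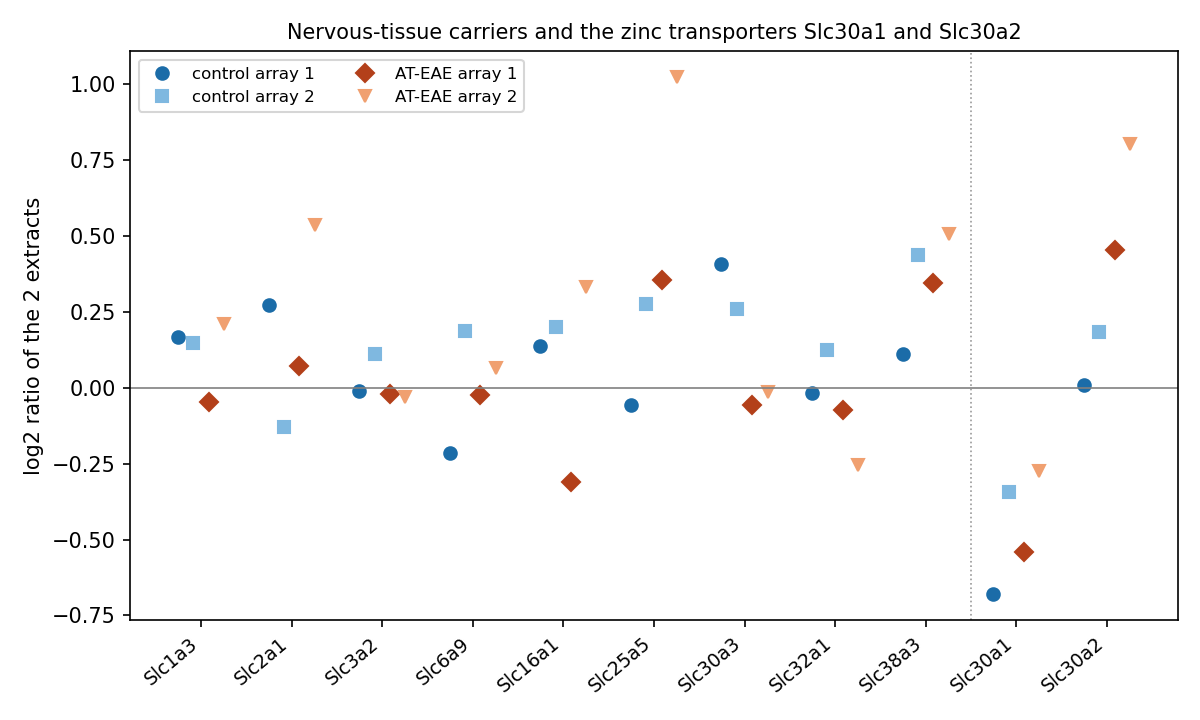
Log2 ratio of the 2 extracts (y axis) on the 4 arrays for the 9 nervous-tissue carriers measured on all of them, left of the dotted line, and for Slc30a1 and Slc30a2, right of it; each symbol is 1 array. Slc30a1 lies below 0 on all 4, from -0.68 to -0.27, and Slc38a3 and Slc30a2 lie above it, while Slc3a2 stays between -0.03 and 0.11.

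The gene for Slc30a1 is known to be switched on by zinc through the metal-responsive factor MTF-1, which also drives the metallothionein genes. Its promoter is shown because its mean ratio was the largest in size and metallothioneins were measured beside it. This choice was made after the values were seen. Extract numbers are arbitrary, so that mean compares no conditions, and it did not pass the limma test given below. Whether zinc has a part in it was not tested. The 250 bases before its start site, on the plus strand of GRCm38.p6 at chr1:191906531-191906780, credited to RefSeq, read as follows, with capitals at a match to the core of the metal response element.
Slc30a1 promoter: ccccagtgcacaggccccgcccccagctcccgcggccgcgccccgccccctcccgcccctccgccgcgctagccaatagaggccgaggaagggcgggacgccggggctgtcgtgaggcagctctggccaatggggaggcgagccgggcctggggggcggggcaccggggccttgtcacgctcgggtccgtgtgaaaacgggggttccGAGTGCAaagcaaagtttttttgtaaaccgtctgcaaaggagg

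The core was searched as TGCACNC and TGCGCNC on both strands. This window held 1 match, on the reverse strand, 43 to 37 bases before the start, and 7032 of 32851 promoter windows of this length (21.4%) held at least 1. A match is a description of letters and no evidence of binding. The metallothionein gene Mt1 had ratios of -0.02, 0.19, 0.28 and 0.06 and Mt2 0.01, 0.24, 0.38 and 0.25. On control array 2 and both AT-EAE arrays they thus lay above 0, where Slc30a1 lay below.

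The other carriers among the 4 highest or 4 lowest of an array are given next. Slc17a9, the vesicular nucleotide transporter, had -0.41, -0.10, -0.24 and 0.10, and Slc35b4, a nucleotide sugar transporter of the Golgi, had -0.40, 0.09, -0.19 and -0.37. Slc28a2, a concentrative nucleoside transporter, had 0.07, -0.34, 0.04 and 0.09, and Slc7a7, a cationic amino acid exchanger, had -0.14, -0.25, -0.08 and 0.19. Slc38a2, another glutamine carrier, was above 0 throughout, with 0.24, 0.38, 0.05 and 0.27. Slc5a6, the sodium-dependent multivitamin transporter, had -0.14, 0.30, 0.42 and -0.03. Slc26a11 had -0.19, 0.41, 0.07 and -0.53, and Slc10a7 had -0.30, 0.21, -0.03 and -0.76, so both changed sign between arrays. Slc9a3r2, a scaffold and no carrier, had 0.13, 0.12, -0.34 and 0.31.

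The member with most spots in each functional group was followed whatever its values, and those not yet described are given here. Slc31a1, the copper importer, had 5 spots, the most of any member, and ratios of 0.07, -0.25 and -0.06 with no value on AT-EAE array 2. Slc29a1, the equilibrative nucleoside transporter, had 4 spots and 0.06, -0.20, -0.10 and -0.06. Slc14a1, the urea transporter, also had 4 spots and -0.10, -0.08, -0.04 and -0.06, the same side of 0 each time by less than the deviation between spots. With 3 spots each, Slc25a13, the aspartate-glutamate carrier of mitochondria, had -0.09, 0.06 and 0.07 on the first 3 arrays, and Slc13a4, a sulphate transporter, had -0.19, -0.18 and 0.02. Slc12a7, a potassium-chloride cotransporter, had -0.15, -0.13, 0.01 and 0.02, and Slc44a1, a choline transporter, had 0.00, 0.20, -0.10 and 0.15. Slc16a10, the aromatic amino acid transporter, had 2 spots and no value.

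The third question was whether a carrier had a ratio shared by arrays that held different extracts, or one that differed between the groups. Both were tested with limma over the 5429 genes with values on all 4 arrays, 95 of them carriers, with Benjamini-Hochberg adjustment over all genes. No carrier was called for a shared ratio, with 0 of 95 past an adjusted p of 0.05, and 1 gene of the table, Shmt2, was (0.0184%). At an unadjusted p under 0.05 there were 13 carriers, or 13.7%, against 11.2% of all genes. Slc30a1 came first, with a mean of -0.46 ± 0.10 (SE, 4 arrays) and an adjusted p of 0.200 from limma, below 0 on 4 of 4 arrays. Slc30a2 followed at 0.36 ± 0.10 (adjusted p = 0.284) and Slc38a3 at 0.35 ± 0.10 (adjusted p = 0.298), both above 0 on 4 of 4. Slc25a47, Slc25a5 and Slc29a3, a nucleoside transporter of lysosomes, had means of -0.34, 0.40 and -0.29, Slc29a3 being picked after its values were seen. None of these values passed the threshold.

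For AT-EAE minus control, 0 of 95 carriers passed an adjusted p of 0.05 in limma, and 1 gene of the table (0.0184%), again Shmt2, did. At an unadjusted p under 0.05 there were 5 carriers, or 5.26%, against 3.46% of all genes. They were Slc7a6, Slc30a2, Slc27a4, Slc39a10 and Slc25a5, with an adjusted p of 0.995 each. Since extract numbers are arbitrary, such a difference compares ratios and not levels of expression. The fit without AT-EAE array 1 left 1 array in that group, so carriers called there are given by effect size only. For the shared ratio, Slc25a5, Slc2a8, Slc30a2, Slc66a1 and Slc6a6 had means of 0.57, 0.49, 0.45, -0.53 and 0.48. For the difference, Slc2a8 had 1.04. Other genes of the table were called in that fit as well, so a call there is not particular to carriers. The lone AT-EAE array 2 was there assumed to vary like the control arrays, although its ratios had the widest spread.

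Arrays were also compared pair by pair, as a description across the 95 carriers, which are not independent replicates. The Pearson correlation was 0.25 between the control arrays and 0.29 between the AT-EAE arrays. Control array 1 had 0.20 with AT-EAE array 1 and 0.35 with AT-EAE array 2, and control array 2 had 0.38 and 0.0031 with them. Across all 5429 genes these 6 values were 0.12, 0.19, 0.15, 0.31, 0.33 and -0.0012. The pairs thus ranged from near 0 to 0.38, and carriers ran close to all genes. Of the 95 carriers, 9 lay below 0 on all 4 arrays (9.47%) and 7 above it (7.37%), against 11.9% and 10.3% of all genes.

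Over all carriers, the median ratio relative to the array median was -0.01, 0.03, 0.01 and 0.01, with 70 of 155, 85 of 146, 68 of 131 and 48 of 95 carriers above it. Of the smaller groups, organic ion and drug transporters lay at -0.23, 0.05, -0.03 and -0.33, with 1 of 5 above the median on AT-EAE array 2. Vitamin, choline and haem transporters lay at 0.03, 0.20, -0.06 and -0.10, with 8 of 9 above on control array 2. Sugar transporters lay at -0.02, 0.07, 0.03 and -0.07. That group follows subfamily number and so holds Slc5a6, the multivitamin transporter. Nucleoside and nucleotide sugar transporters lay within 0.02 of the array median on every array.

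Genes that work with the carriers were followed from lists drawn up by name. No gene of these lists passed the limma test in either contrast, with 5, 4, 12, 8, 9 and 14 genes tested in the order given here. The sodium pump subunits and carrier chaperones had values for 5 of 5 genes on every array and lay at -0.01, 0.02, -0.05 and 0.15. Bsg, the chaperone of the lactate carriers, had 0.11, 0.13, -0.46 and -0.13, and Atp1b1, a sodium pump subunit, had -0.02, 0.00, 0.04 and 0.77, both picked after their values were seen. The glutamate and GABA enzymes lay at -0.01, 0.03, 0.03 and -0.04. The glycolysis genes kept all 12 values on each array and lay above the array median every time, at 0.09, 0.10, 0.09 and 0.22, with 9, 10, 9 and 12 of 12 genes above. Genes of iron, zinc and copper handling lay at -0.01, -0.03, -0.06 and -0.05, and the outer membrane and import genes were given above.

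ABC genes are another large family on the array, and most of them pump substrates with ATP. Chosen by symbol, the list also admitted Abce1, Abcf1, Abcf2 and Abcf3, which are no transporters. Of 25 such genes, 23, 20, 22 and 14 had a value, or 92.0%, 80.0%, 88.0% and 56.0%. Their medians were 0.01, -0.05, 0.00 and -0.06 relative to the array medians. On control array 2, 4 of 20 lay above the median, where 85 of 146 solute carriers did. This difference between the families was not tested. Abce1, Abcf1, Abcf2 and Abcf3 lay below the median there, with ratios of -0.77, -0.15, -0.14 and -0.04.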

How the data were processed

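The deposited values are 1 number per spot and array, with empty cells where a spot has no value. Per the labels, the authors compared normalized signals of the green and red channels, and the deposited values were read as a log2 ratio, since they are signed and the median over all spots lay within 0.0722 of 0 on every array. For the logarithm's base, the numerator, background correction and spot filter: not given in the sources used here. Signal over background was not analysed here, and the number of arrays, 4, limits the precision. Nothing in the labels says whether pools share cage or litter, so no p-value here reaches beyond these arrays. The permutation p ranks splits of the 4 arrays, and limma draws the spread of a gene partly from all genes tested.

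Of 28704 spots, 18511 had 1 gene in the platform annotation, 937 had several and 9256 had none. Spots of a gene were averaged on each array. Symbols of 18267 of the 18511 spots were found by gene identifier in the GRCm38.p6 gene table, those of all 291 carrier spots among them. Columns of no sample numbered 0. Group differences of shares and spreads were tested by a 2-sided exact permutation over 6 splits of the arrays. The fits used limma 3.58.1 (lmFit, eBayes) in R 4.3.3 on all genes with 4 values, with group means. The fit was tested on simulated data. Python 3.11.15 with numpy 2.4.6 and pandas 2.3.3 did the rest. Members, lists, markers and functional groups by subfamily number were chosen with earlier results of these data known. Named were carriers past 2-fold, the 4 highest and lowest per array among those on all 4 arrays, those with most spots among carriers with values on both control arrays and neither AT-EAE array, and a nervous-tissue list and the member with most spots in each functional group. Other genes were picked after their values were seen.
Alternatives were the median over spots, centring, genes on all 4 or at least 3 arrays, single spots, genes by number of spots, 1.5-fold, the plain SD, list means, a replicate block and leaving out each array.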

Additional observations from a re-analysis of the deposited data

How the results depend on the processing

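The carriers' loss of values in AT-EAE kept its direction under all 7 alternatives, from -30.3 to -10.7 percentage points. For 18 carriers, values were present on both control arrays and neither AT-EAE array. That count was 7 among the 79 carriers with at least 2 spots and 11 among the 104 with 1 spot. All-gene shares were not computed for these 2 classes. Over all carriers the count was 18 to 49 when 1 array was left out, and the all-gene shares behind the 49 are given above. The count of 0 for the opposite pattern ran from 0 to 2. The difference in spread ran from -0.021 to 0.18 when 1 array was left out, turning to -0.021 without AT-EAE array 2. With the plain SD it was 0.16, and both AT-EAE arrays lay above both control arrays (2-sided exact permutation p = 0.333, the smallest possible). Slc22a2 at -3.21 is part of that value on AT-EAE array 1. The counts past 2-fold of 0, 0, 1 and 2 became 3, 3, 3 and 12 at 1.5-fold. On AT-EAE array 1 the count was 0 with genes on all 4 arrays and 0 with at least 2 measured spots, and on AT-EAE array 2 it was 1 with at least 2 measured spots. Of 172 alternative values of list medians, 165 moved by less than 0.09, the pooled SD of a list median between arrays of a group. With means, amino acid exchangers were at 0.10 and metal transporters at 0.11 on AT-EAE array 2, and organic ion transporters at -0.12 on control array 1 and -0.38 on AT-EAE array 1. On control array 2, genes on all 4 arrays gave 0.18 for organic ion transporters and 0.10 for phosphate and sulphate transporters, and medians over spots gave 0.082 for vitamin transporters. The cause was not tested. The limma count for a shared ratio ran from 0 to 5 and that for the difference from 0 to 1 when 1 array was left out, and was 0 otherwise. With a replicate block by array number, 0 carriers and 6 genes were called for the difference. Same-numbered arrays deviated from their group means with a correlation of -0.29, and a crossed replicate block, added after seeing the data, called 0 carriers and 1 gene.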
